A study of Mus musculus with 3 samples.

Results

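The cadherin superfamily was represented by 20 of the 1039 genes listed in any of 3 tables of cluster markers from nuclei of the mouse lateral septum. The members were all listed genes whose symbol begins with Cdh and a digit, Pcdh, Fat and a digit, Dchs, Celsr, Clstn or Ctnn. They were 10 cadherins (Cdh4, Cdh6, Cdh7, Cdh9, Cdh10, Cdh11, Cdh12, Cdh18, Cdh19 and Cdh20), 6 protocadherins (Pcdh7, Pcdh9, Pcdh10, Pcdh11x, Pcdh15 and Pcdh20), the giant cadherins Fat3 and Dchs2, the calsyntenin Clstn2 and the α-catenin Ctnna2. Together they filled 67 rows, a row being 1 gene in 1 cluster.

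The nuclei came from the septum of 8 naïve male C57BL/6J littermates aged 3 months, whose tissue was pooled, sorted for nuclei by fluorescence and made into 3 droplet libraries. The labels' protocols say that neighbouring medial septum, triangular septum, cortex or striatum may be included. All libraries formed 1 group with no treatment or altered allele, so the comparisons are those between clusters. The broad table covered all nuclei in 25 clusters, the GABA table the GABA neurons in 22 subclusters, and the Sst table a set of nuclei labelled Sst in 8 subclusters. Values per library and per mouse were not used here, so no value has a replicate error and no test was made.

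Classical cadherins are calcium-dependent adhesion proteins that bind cadherins on the next cell and are tied to the actin cytoskeleton by catenins. Type II cadherins bind selectively, to themselves and to some of their relatives, and in the mouse brain they help to match axons with their targets. Protocadherins, the FAT and Dachsous proteins and the calsyntenins carry the same extracellular repeat in other settings, from cell recognition to postsynaptic organisation. Combinations of these genes mark neuron groups and nuclei of the developing brain.

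The sequences before a RefSeq start of Cdh6, Cdh9 and Cdh10 are shown because these type II cadherin genes lie next to each other on chromosome 15 and were listed together for GABA subcluster 12, the cluster with most members. Each sequence is the 250 bases before the RefSeq start used here on GRCm38.p6, 5′ to 3′ on the gene's strand, and the capitals mark a run of 15 bases that 2 of them share. The windows are chr15:13173676-13173925 (- strand) for Cdh6, chr15:16728665-16728914 (+ strand) for Cdh9 and chr15:18820079-18820328 (+ strand) for Cdh10. The RefSeq and GENCODE M21 starts are the same base for Cdh6, but GENCODE places the start 159 bases further upstream for Cdh9 and 1382 bases further upstream for Cdh10, so that 159 bases of the Cdh9 window and the whole Cdh10 window lie inside the GENCODE gene.
Cdh6: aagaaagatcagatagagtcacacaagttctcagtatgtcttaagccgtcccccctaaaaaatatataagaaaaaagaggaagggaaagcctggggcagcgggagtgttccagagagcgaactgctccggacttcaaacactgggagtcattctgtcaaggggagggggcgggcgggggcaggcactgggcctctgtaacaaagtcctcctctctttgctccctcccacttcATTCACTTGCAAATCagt
Cdh9: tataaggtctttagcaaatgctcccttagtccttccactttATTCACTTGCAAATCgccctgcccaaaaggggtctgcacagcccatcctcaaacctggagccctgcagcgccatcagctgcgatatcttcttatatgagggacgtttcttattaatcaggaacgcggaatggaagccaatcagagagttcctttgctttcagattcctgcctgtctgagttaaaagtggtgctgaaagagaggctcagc
Cdh10: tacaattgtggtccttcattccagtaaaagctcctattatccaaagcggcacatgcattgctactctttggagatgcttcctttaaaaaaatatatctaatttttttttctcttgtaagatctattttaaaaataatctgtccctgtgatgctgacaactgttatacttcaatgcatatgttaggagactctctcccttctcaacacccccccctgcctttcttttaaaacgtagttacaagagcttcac
The run ATTCACTTGCAAATC is on the same strand in Cdh6 and Cdh9 and ends 3 bases before the start of Cdh6. In Cdh9 it ends 194 bases before the RefSeq start and 35 bases before the GENCODE start. The run was held by 2 of 32851 windows of 250 bases, which is 0.00609% of them, and these belonged to Cdh6 and Cdh9. It was picked as the longest run shared by these 2 windows, so both are counted by construction. How long a run other pairs of windows share was not tested. The longest run shared by Cdh6 and Cdh10 was 11 bases, found in 0.103% of windows, and that shared by Cdh9 and Cdh10 was 7 bases, found in 7.35%. The runs were looked for after the cluster listings were known, on both strands, and a shared run is a description of the letters and not of a bound factor. Of 3 common motifs searched on both strands, the GC box GGGCGG (in 32.7% of all windows) was found in 2 places in Cdh6, the E-box CAGCTG (13%) in 1 place in Cdh9, and the TATA box TATAAA (12.4%) in none of the 3 windows. The 2 matches of the GC box in Cdh6 overlap each other, and none of the windows held more than 1 kind of motif. GC content was 51.2% for Cdh6, 48.0% for Cdh9 and 36.8% for Cdh10, against a median of 52.4% over all windows.

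**Figure D1:**
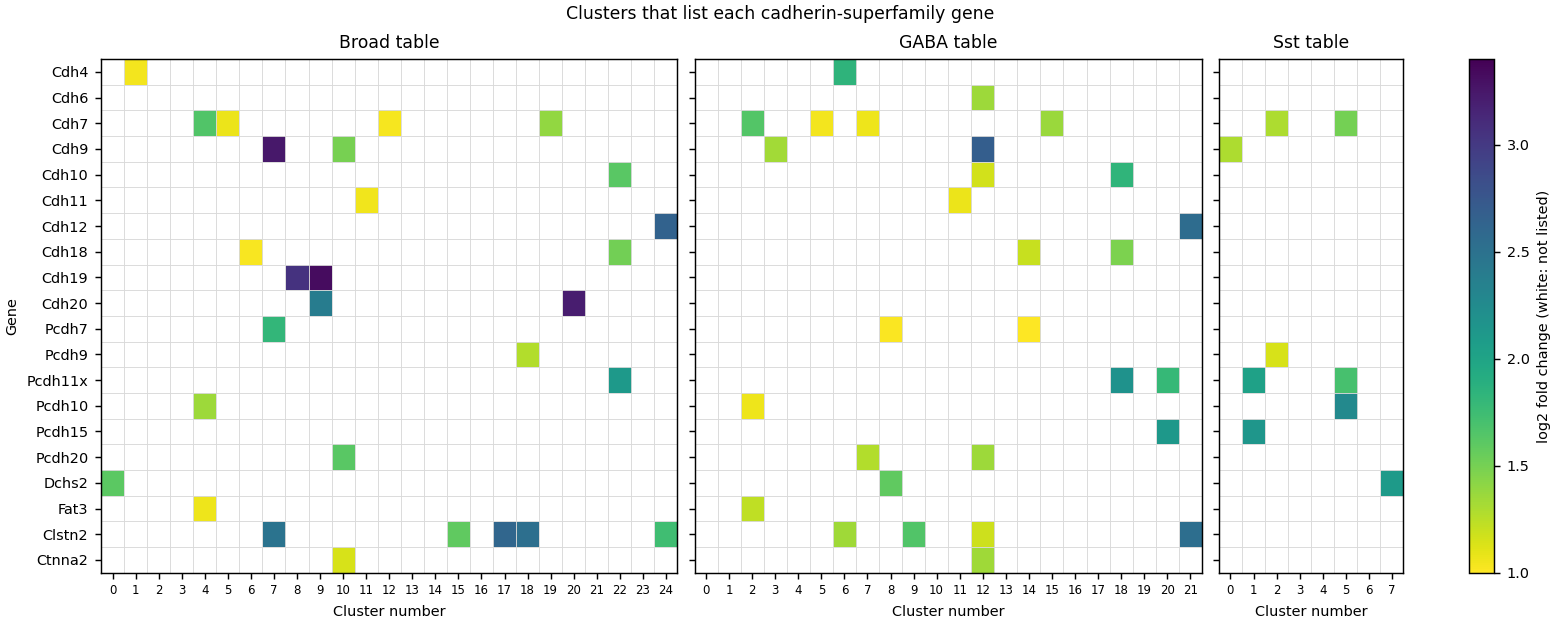
Listing of the 20 cadherin-superfamily genes (y axis) in the clusters of each table (x axis, cluster number), coloured by log2 fold change, with white where a gene is not among the 50 listed. Cdh7 and Clstn2 fill the longest horizontal series, and GABA subcluster 12 has 6 coloured cells.

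Every cluster was given 50 genes, in the order of the authors' p-value, and no log2 fold change was under 1. The log2 fold change compares a cluster with all other nuclei of its table, and detection is the percentage of nuclei in which a gene was found. A gene absent from a list may still differ there. Neither sequencing depth nor nuclei numbers are known, so no counting interval can be given, and the part of detection that came from free RNA was not tested. The broad table listed 834 genes, 4.05% of the 20574 the authors tested; the GABA table listed 705, or 3.52% of 20044; and the Sst table listed 353, or 1.95% of 18109. Of these listed genes, 18, 17 and 7 were members, and since the members were chosen by being listed, nothing is read from these counts. In the GENCODE M21 annotation 112 protein-coding genes match the same symbol rule, and the 20 listed were spread unevenly over subfamilies. Of 13 type II cadherins 9 were listed, and of 4 δ1-protocadherins 3 were listed. By contrast, 1 of 5 type I cadherins, 1 of 9 genes named for catenins, 0 of 3 flamingo cadherins and 0 of 56 clustered protocadherins were listed. Whether reads could be told apart between genes of a subfamily was not tested. A count of 0 here is therefore not a measure of expression.

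Members were listed in 18 of 25 broad clusters, 14 of 22 GABA subclusters and 5 of 8 Sst subclusters. Member rows made up 2.32%, 2.64% and 2.25% of the rows of the broad, GABA and Sst tables, or about 1 gene in a list of 50. The oligodendrocyte-like broad cluster 9 (all 8 markers listed), the astrocyte-like cluster 8 (6 of 10) and the oligodendrocyte precursor-like cluster 20 (7 of 7) each listed members. So did GABA subcluster 20 and Sst subcluster 1, which listed 3 of 11 lateral septum markers (Nts, Sst and Meis2) but had the interneuron marker Chodl above them in log2 fold change, and which are left unnamed. Clusters with 0 members were the striatal medium spiny neuron-like broad cluster 14 and GABA subcluster 13 (8 of 11 markers each), the interneuron-like broad cluster 16, GABA subclusters 17 and 19 and Sst subcluster 6 (5 to 7 of 13 markers), the excitatory neuron-like broad clusters 13 and 23 (3 of 10 each), and the unnamed broad clusters 2, 3 and 21, GABA subclusters 0, 1, 4, 10 and 16 and Sst subclusters 3 and 4. Broad cluster 14 and GABA subcluster 13 are a match, with 43 of 50 genes shared. The best match of GABA subclusters 17 and 19 was broad cluster 16 for both, with 30 and 29 shared genes. Sst subcluster 6 matched GABA subcluster 17 (42 genes), with subcluster 19 next (14 genes). Matched clusters share nuclei, so they are not separate cases. The GABAergic markers Gad1, Gad2 and Slc32a1 were listed for 0 clusters, and so were all markers of microglia, endothelial, mural and ependymal cells. The other clusters were not named.

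The chromosome 15 type II cadherins came first by number. Cdh6, Cdh9, Cdh10, Cdh12 and Cdh18 lie in that order with 0 whole protein-coding genes annotated between neighbours and gaps of 0.959 to 3.56 Mb. On GRCm38 the row of genes runs from Cdh6 (chromosome 15, 13028701 to 13173675, - strand) to Cdh18 (22549022 to 23474418, + strand), with Cdh9 at 16728756 to 16857094 on the + strand. In the mouse, Cdh9 acts at the synapses of hippocampal mossy fibres and of retinal bipolar cells, and Cdh6 in the targeting of retinal ganglion cell axons. Cdh9 had the largest log2 fold change of the 5. It reached 3.25 in cluster 7 of the authors' deposited broad table, with detection in 46.1% of its nuclei and 6.6% of the others, and 1.5 in cluster 10 (21.6% against 8.1%). Cluster 7 also listed the vesicular glutamate transporter gene Slc17a7, a gene listed for 0 GABA subclusters. Within GABA neurons, the authors' deposited table gave Cdh9 2.68 in subcluster 12 (26.7% against 5.2%) and 1.34 in subcluster 3 (12.8% against 5.3%). The value for subcluster 0 of the authors' deposited Sst table was 1.30 (12.9% against 5.3%). Cdh9 was thus a gene of low detection outside each single listing cluster, at 5.2% to 8.1%, with its other listing clusters counted as outside. In GABA subcluster 12 Cdh9 ranked 5 of 50 by log2 fold change.

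Cdh6 was listed for GABA subcluster 12 alone, with 1.35 (22.3% against 9.9%) in the authors' deposited table. Cdh10 was listed for the same subcluster at 1.17 (58.8% against 35.1%) and for subcluster 18 at 1.83 (76.4% against 35.3%) in the authors' deposited GABA table. The matching broad cluster 22 had Cdh10 at 1.62 (75.1% against 39.1%) in the authors' deposited table. Unlike Cdh6 and Cdh9, Cdh10 was found in at least 35.1% of nuclei outside each single listing cluster.

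Cdh12 was listed for the smallest cluster of each table that named it. Its values in the authors' deposited tables were 2.65 in broad cluster 24 (86.6% against 39.5%) and 2.55 in GABA subcluster 21 (85.7% against 40.2%). In both clusters Spp1 and Six3 had the largest log2 fold changes among genes with detection inside of at least 25%. The clusters shared 49 of 50 listed genes, so the values are not separate results. Cdh18 had high detection inside its listing clusters and in the pooled nuclei outside each of them. Its detection in any single cluster that did not list it is not known. Its log2 fold change in the authors' deposited GABA table was 1.47 in subcluster 18 (99.1% against 78.5%) and 1.20 in subcluster 14 (90.5% against 78.5%). The authors' deposited broad table gave it 1.51 in cluster 22 (99.0% against 77.0%) and 1.02 in cluster 6 (89.3% against 76.5%). Outside each single listing cluster Cdh18 was still detected in at least 76.5% of nuclei, and the fold changes come with detection differences of 12 to 22 percentage points.

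Of the chromosome 1 type II cadherins, Cdh19 and Cdh20 were listed in glia-like clusters and Cdh7 in others. Cdh7 and Cdh19 are neighbours there, 0.748 Mb apart with 0 protein-coding genes between them, and Cdh20 lies 4.99 Mb from Cdh7. Cdh7 spans 109982431 to 110140157 on the + strand and Cdh19 spans 110888326 to 110977584 on the - strand. Cdh7 shared 0 clusters with Cdh19 or Cdh20. For Cdh19 the authors' deposited broad table gave 3.05 in the astrocyte-like cluster 8 and 3.32 in the oligodendrocyte-like cluster 9, with detection in 33.2% inside and 4.5% outside in each. Cdh20 had 3.21 in the precursor-like cluster 20 (56.6% against 11.5%) and 2.39 in cluster 9 (44.6% against 10.9%) in the authors' deposited broad table. Both genes were listed in the oligodendrocyte-like cluster, Cdh19 without Cdh20 in the astrocyte-like cluster, and Cdh20 without Cdh19 in the precursor-like cluster. Whether detection differs between these glia clusters was not tested.

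Cdh7 was the type II cadherin listed for most clusters, 4 broad, 4 GABA and 2 Sst. Detection in the authors' deposited GABA table was 66.0% in subcluster 2 (log2 fold change 1.64), 65.6% in subcluster 15 (1.36), 57.7% in subcluster 7 (1.06) and 52.1% in subcluster 5 (1.04), against 30.1% to 32.5% outside. The authors' deposited broad table had it in 63.9% of nuclei of cluster 4 (1.65), 62.5% in cluster 19 (1.39), 55.7% in cluster 12 (1.03) and 49.3% in cluster 5 (1.07), against 29.0% to 30.5% outside. The Sst subclusters 5 and 2 had 62.4% (1.5) and 55.1% (1.29) in the authors' deposited table, against 30.8% and 29.2%. The 4 broad clusters are the best matches of the 4 GABA subclusters, in the same order of detection. Detection of Cdh7 was higher inside than outside by 19.4 to 35.9 percentage points over these 10 rows. Among all genes of the GABA table, the listing closest to that of Cdh7 was that of the transcription factor gene Tox, which shared 3 of its 4 subclusters (Jaccard index 0.75 over 22 subclusters). In the broad table the closest was Focad, with 3 shared clusters (0.75 over 25 clusters), followed by Tox with 3 (0.60).

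Cdh11, the osteoblast cadherin, and Cdh4, the type I cadherin first described in retina, were each listed for 1 broad cluster and 1 GABA subcluster. For Cdh11 the authors' deposited tables gave 1.05 in broad cluster 11 (75.0% against 48.3%) and 1.07 in GABA subcluster 11 (75.3% against 48.1%), clusters that shared 44 of 50 genes. Cdh4 had 1.84 in GABA subcluster 6 (24.7% against 7.9%) and 1.04 in broad cluster 1 (17.9% against 9.4%) in the authors' deposited tables. Both of the latter clusters listed Nkx2-1, a transcription factor gene of the medial septum. The broad cluster was the best match of GABA subcluster 4 as well as of subcluster 6, and Cdh4 was not listed for subcluster 4.

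**Figure D2:**
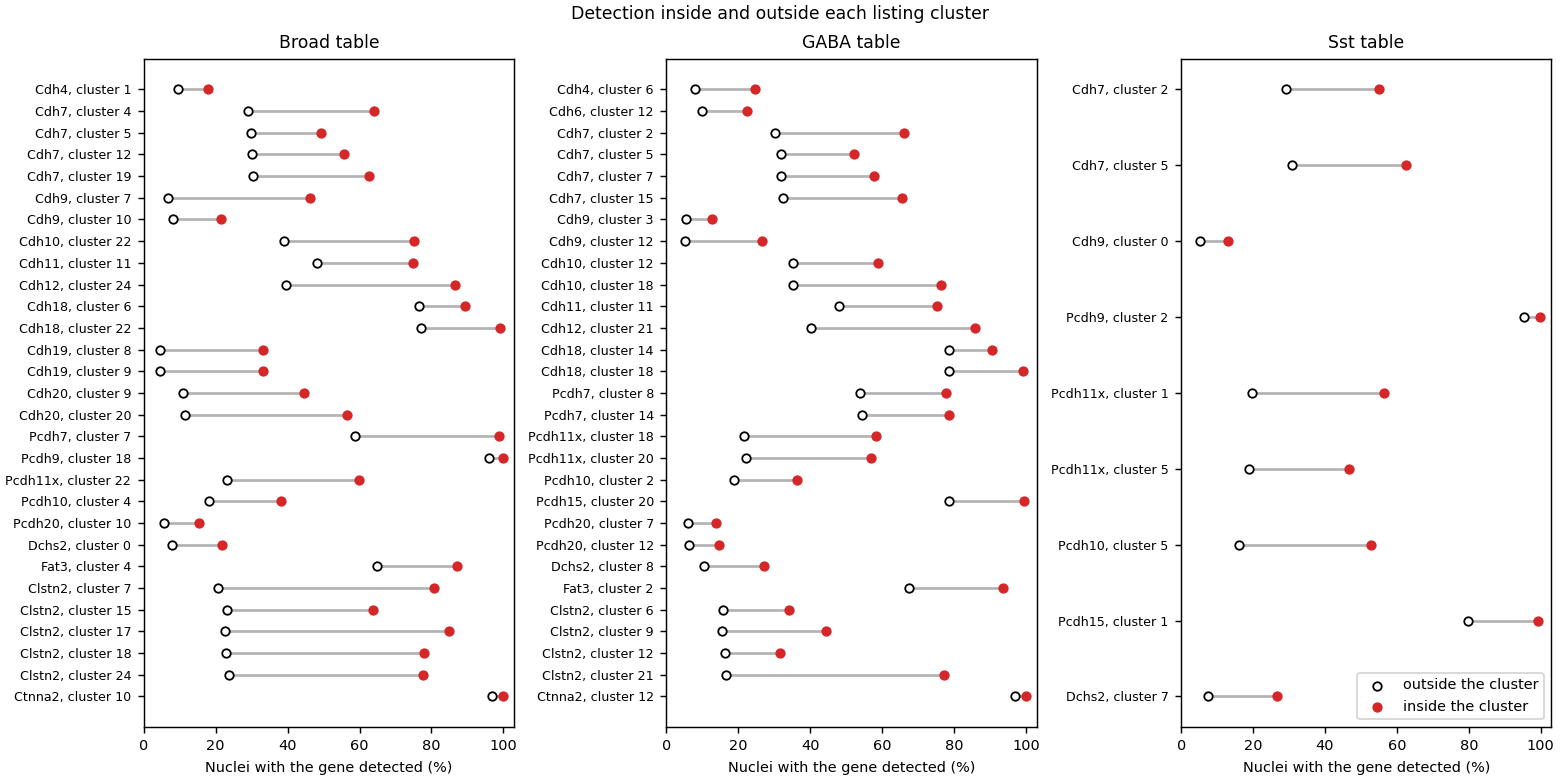
Percentage of nuclei in which each member was detected (x axis) inside (red) and outside (white) every listing cluster, for the 67 rows of the 3 tables (y axis). Cdh19, Cdh9 and Pcdh20 start below 9% outside their clusters, while Pcdh9 and Ctnna2 start above 95%.

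Among the δ1-protocadherins, Pcdh11x, an X-linked gene, had the largest differences within GABA neurons. It had 2.18 in subcluster 18 (58.3% against 21.7%) and 1.79 in subcluster 20 (57.0% against 22%) of the authors' deposited GABA table. The authors' deposited Sst table gave Pcdh11x 2.03 in subcluster 1 (56.3% against 19.6%) and 1.7 in subcluster 5 (46.7% against 18.9%), and their broad table had it at 2.11 in cluster 22 (59.8% against 23.2%). Detection inside was thus 46.7% to 59.8% in each listing cluster. Pcdh7 was listed for the Slc17a7 cluster 7 of the authors' deposited broad table at 1.82 (98.7% against 58.6%), and in the GABA table for subcluster 8 at 1.02 (77.7% against 53.9%) and subcluster 14 at 1.01 (78.7% against 54.5%). Pcdh9 had 1.27 in broad cluster 18 (100% against 96.1%) and 1.14 in Sst subcluster 2 (99.9% against 95.3%) in the authors' deposited tables. For Pcdh9 detection is close to its ceiling, so the log2 fold change carries the difference and detection does not.

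Pcdh10, a δ2-protocadherin needed for the growth of striatal axons in the mouse, was listed beside Cdh7 wherever it appeared. The authors' deposited tables gave it 1.35 in broad cluster 4 (38.2% against 18%), 1.07 in GABA subcluster 2 (36.2% against 18.8%) and 2.27 in Sst subcluster 5 (52.8% against 16.2%). Pcdh15, a tip-link protein of inner ear hair cells, was listed for the pair of subclusters with Nts, Sst and Chodl, with 2.12 in GABA subcluster 20 (99.3% against 78.5%) and 2.14 in Sst subcluster 1 (99.3% against 79.8%) in the authors' deposited tables. These subclusters shared 39 of 50 genes, and each also listed Pcdh11x. Pcdh20 was found in few nuclei. The authors' deposited GABA table gave Pcdh20 1.35 in subcluster 12 (14.7% against 6.3%) and 1.27 in subcluster 7 (13.7% against 6.1%), and their broad table had it at 1.61 in cluster 10 (15.4% against 5.7%).

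Of the giant cadherins, Fat3, which shapes amacrine cell dendrites in the mouse retina, was listed with Cdh7 and Pcdh10. It had 1.23 in GABA subcluster 2 (93.6% against 67.5%) and 1.06 in broad cluster 4 (87.2% against 64.8%) in the authors' deposited tables. Dchs2, a Dachsous gene of the family that binds FAT cadherins, was listed in other clusters than Fat3. This was usual, as 15 of 153 possible broad and 27 of 136 possible GABA pairs of members shared a cluster. The authors' deposited tables gave Dchs2 1.60 in broad cluster 0 (21.7% against 7.8%), 1.58 in GABA subcluster 8 (27.1% against 10.4%) and 2.10 in Sst subcluster 7 (26.7% against 7.5%). In all 3 of these clusters the collagen gene Col15a1 had the largest log2 fold change among genes with detection inside of at least 25%. The best match of the broad cluster by count was GABA subcluster 1, with 38 shared genes against 16 for subcluster 8, and subcluster 1 did not list Dchs2.

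Clstn2, a calsyntenin found at the postsynaptic side, was listed for 5 broad clusters and 4 GABA subclusters, and had the largest detection differences of any member in both tables. Detection in the authors' deposited broad table was 84.8% in cluster 17 (log2 fold change 2.61), 80.7% in cluster 7 (2.48), 78.0% in cluster 18 (2.52), 77.6% in cluster 24 (1.74) and 63.8% in cluster 15 (1.59), against 20.7% to 23.6% outside. Clusters 7 and 17 listed Slc17a7 and cluster 18 listed Slc17a6, and 3 other broad clusters with a vesicular glutamate transporter gene (13 and 23 with Slc17a7, 21 with Slc17a6) did not list Clstn2. Within the authors' deposited GABA table detection was 77.1% in subcluster 21 (2.53), 44.3% in subcluster 9 (1.66), 34.0% in subcluster 6 (1.34) and 31.6% in subcluster 12 (1.18), against 15.4% to 16.6% outside. The same nuclei group, broad cluster 24 and GABA subcluster 21, had about equal detection inside in both tables but a lower log2 fold change in the broad table, where 23.6% of the other nuclei had the gene against 16.6% in the GABA table. In the GABA table the closest listing to that of Clstn2 was that of Baiap3, with 3 shared subclusters (Jaccard index 0.75), and in the broad table Dab1, Ntm and Slit3 each shared 3 clusters (0.60). Dab1 is the intracellular adaptor of the reelin pathway. Ctnna2, the neuronal α-catenin that links the cadherin complex to actin, had 1.34 in GABA subcluster 12 (99.9% against 97.0%) and 1.15 in broad cluster 10 (99.8% against 96.8%) in the authors' deposited tables. It was the single catenin listed, and like Pcdh9 it was found in nearly all nuclei.

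Most members were listed with others. GABA subcluster 12, which also listed the oestrogen receptor gene Esr1, listed 6 members (Cdh9, Cdh6, Pcdh20, Ctnna2, Clstn2 and Cdh10), while no other GABA subcluster had more than 3 and no broad or Sst cluster had more than 3. Its best-matching broad cluster 10 shared 34 genes with it and listed 3 of the 6, Cdh9, Ctnna2 and Pcdh20. Of the 7 broad clusters that listed 2 or more members, all had different combinations, as did the 9 GABA and the 3 Sst subclusters. Of the 15 broad, 27 GABA and 5 Sst pairs of members listed together in a cluster, 0 were together in another cluster of the table, and over all pairs of listed genes this was the case for 5.14%, 5.52% and 1.02%, so repeated pairs were rare among listed genes in general. Some matched clusters of different tables had the same combination, Cdh10, Cdh18 and Pcdh11x in broad cluster 22 and GABA subcluster 18, and Cdh7, Fat3 and Pcdh10 in broad cluster 4 and GABA subcluster 2. Of 29 member rows in the GABA table, 18 had the same gene in the best-matching broad cluster, or 62.1% against 60.6% of all rows. Of the 9 Sst member rows 6 had it in the best-matching GABA subcluster (66.7% against 63% of all rows) and 4 in the best-matching broad cluster (44.4% against 42.5%), so each share was near that of all listed genes. The nuclei of these tables are shared, so these are not independent.

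Within the lists, member rows had lower median log2 fold changes and higher median detection, inside and outside, than all rows. The median log2 fold change of member rows was 1.61 in the broad, 1.35 in the GABA and 1.7 in the Sst table, against 2.11, 1.67 and 1.74 over all rows. The median detection inside was 63.8%, 58.3% and 55.1% for member rows against 45.75%, 38.85% and 35.3% over all rows, in the same order, and the median detection outside was 23.2%, 30.1% and 19.6% against 13.55%, 14.25% and 12.2%. A log2 fold change of at least 2 was reached by 10 of 29 member rows in the broad table (53.5% of all rows), by 5 of 29 in the GABA table (38.5%) and by 4 of 9 in the Sst table (39.8%). Detection outside of at least 50% occurred in 6 of 29 broad member rows (13.6% of all rows), 7 of 29 GABA rows (12.2%) and 2 of 9 Sst rows (14.5%). Among the 10 genes of each cluster with the largest log2 fold change were 0, 1 and 0 member rows of the 3 tables (20.0% of all rows in each), and among the 10 with the largest detection difference 6, 4 and 1 (20.1%, 20.4% and 20.0%). Listing in 2 or more clusters was seen for 6 of 18 members in the broad table (34.3% of all listed genes), 8 of 17 in the GABA table (36.6%) and 2 of 7 in the Sst table (11.9%). The median detection difference was 28.7, 21.5 and 25.9 percentage points for member rows and 26.85, 21.85 and 21.5 over all rows.

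**Figure D3:**
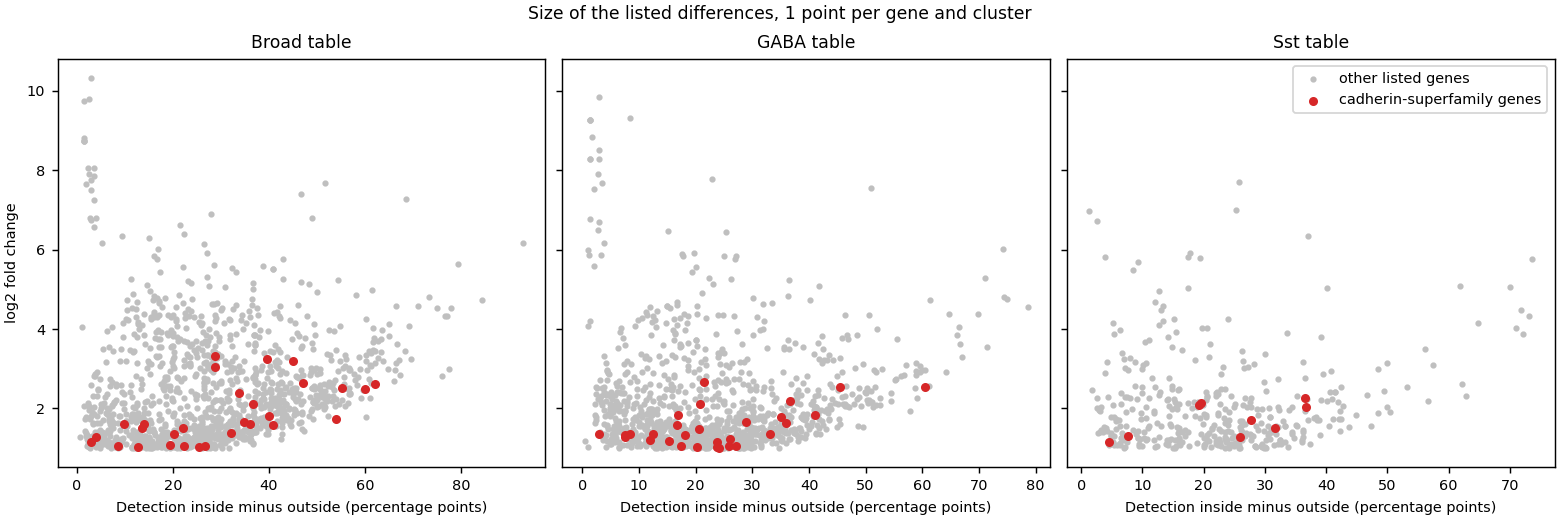
The log2 fold change (y axis) against the detection inside minus outside (x axis, percentage points) for every listed gene and cluster, with the cadherin-superfamily genes in red and all others in grey. Member points lie between 1.01 and 3.32 on the y axis, below the largest value of each table.

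How many of a table's nuclei each cluster held was solved from detection, since the inside and outside values of 1 gene average to a single overall value whichever listing cluster is used. This gives the part of a member's positive nuclei that a cluster holds, with a range for rounding of that row's inside and outside values. The range holds the cluster share fixed, so it covers neither error in the solved shares nor differences between mice. Clusters 8 and 9 held 8.08% of all nuclei and 47.4% of those with detected Cdh19, and outside them Cdh19 was detected in 3.24% of nuclei. Cdh20 was broader, with 21.3% of its positive nuclei in clusters 9 and 20 and detection of 10.2% elsewhere. The Slc17a7 cluster 7 held 27.0% (26.9% to 27.2%) of the nuclei with detected Cdh9 from 5.04% of all nuclei. Overall detection of Cdh9 was 8.61% of all nuclei and 5.96% of GABA nuclei.

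Other members were spread more evenly. The 4 subclusters listing Cdh7 held 41.5% of its positive GABA nuclei from 23% of the nuclei, and the remaining subclusters still had it in 25.3% of nuclei. Clstn2 was detected in 23.8% of all nuclei and 16.8% of GABA nuclei, and its 5 broad clusters held 35.1% of its positive nuclei from 10.7% of the nuclei. Subcluster 7 of the Sst table held 44.0% of the Sst nuclei with detected Dchs2 from 18.1% of them, and Sst subcluster 0 held 48.6% of those with detected Cdh9 from 28%. Broad cluster 24, the smallest, held 0.506% of the nuclei with detected Cdh12 from 0.232% of all nuclei. The other Cdh12-positive nuclei lay in clusters that did not list it. Ctnna2 and Pcdh9 were spread most evenly. For Ctnna2, broad cluster 10 held 4.07% of positive nuclei from 3.96% of all nuclei, and for Pcdh9, Sst subcluster 2 held 13.4% from 12.9%.

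**Figure D4:**
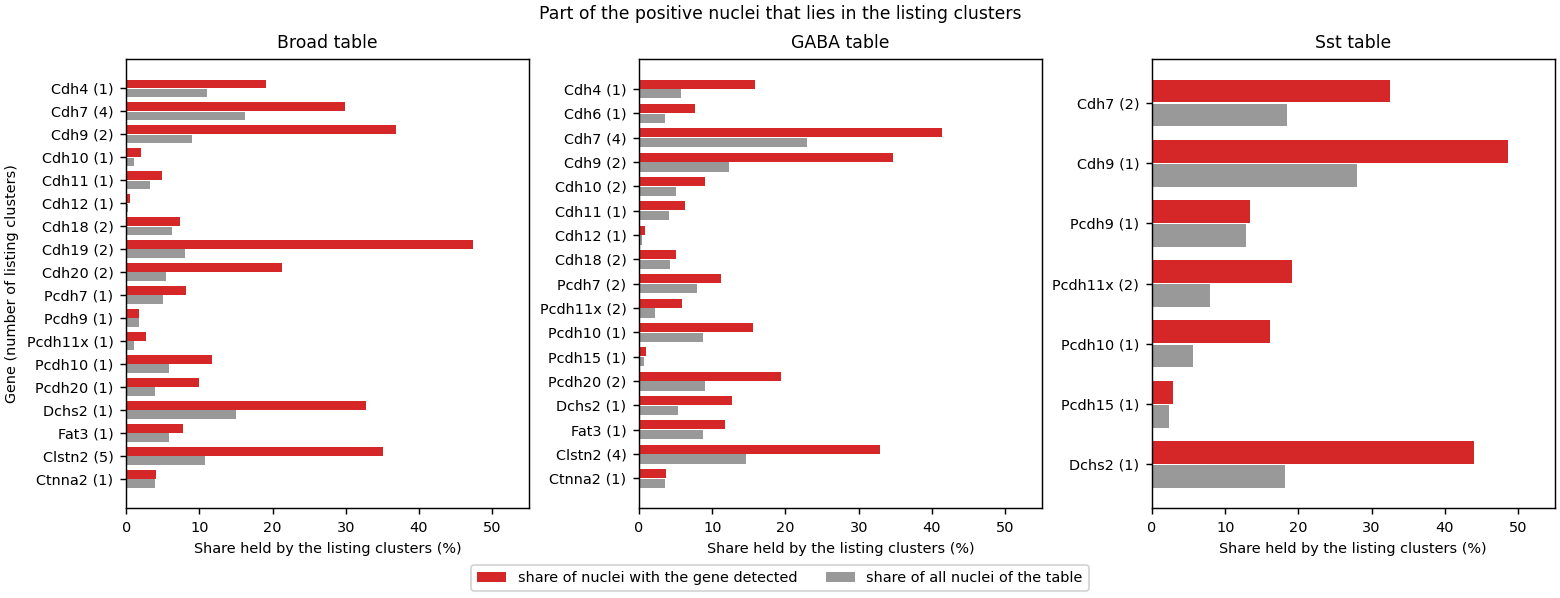
Share of the nuclei with a member detected that lies in its listing clusters (red bars, %) beside the share of all nuclei of the table in those clusters (grey bars, %), per member and table, with the number of listing clusters in brackets. The red bar is far longer for Cdh19 (47.4% against 8.08%) and about equal for Ctnna2 and Pcdh9.

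The listed members are long genes. The median annotated span of the 20 members was 322 kb, against 126 kb for the 1000 other listed genes with an annotation and 17.4 kb for all 21924 protein-coding genes, and 8 of the 20 exceeded 500 kb. The 92 annotated genes of the same symbol rule that were listed in no table had a median of 64.7 kb. Detection has no correction for length here. The comparisons of detection between members, all rows and other adhesion genes are therefore between genes of unlike span. What part span has in those differences was not tested. The longest member was Pcdh15 (chromosome 10, 73099342 to 74649737, + strand, 1550 kb) and the shortest Pcdh20 (chromosome 14, 88464743 to 88471396, - strand, 6.65 kb). The 24 listed genes of the comparison list of other neuronal adhesion genes were longer still, with a median of 629 kb. Positions and spans are those of GENCODE M21 on GRCm38. Another annotated gene overlaps 16 of the 20 members, on the opposite strand for 13, and the sources used here do not say how reads were assigned there.

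**Figure D5:**
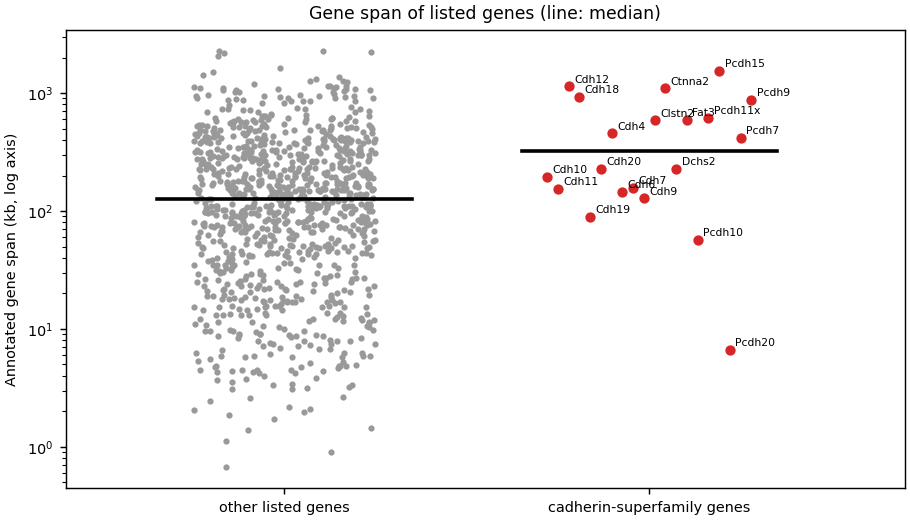
Annotated gene span (y axis, kb, log axis) of the 1000 other listed genes with an annotation (grey) and of the 20 cadherin-superfamily genes (red, named), with the median as a line. The median lines lie at 126 kb and 322 kb.

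Among other genes of the pathway, those tied to cadherin junctions were listed mostly as receptor phosphatases. Of 23 cadherin-associated and junction genes, 4 were listed in the broad, 3 in the GABA and 3 in the Sst table, and the 3 common to all tables were the homophilic phosphatase genes Ptprk, Ptprm and Ptprt. Ptprm had 4.15 in the authors' deposited Sst table for the interneuron-like subcluster 6 (72.9% against 8.1%), a cluster with 0 members of the cadherin superfamily. The authors' deposited GABA table listed Ptprm at 3.22 in subcluster 19 and 3.06 in subcluster 17, both with 0 members, at 2.46 in subcluster 11 with 1 member, and at 1.64 in subcluster 12 with 6 members. The largest log2 fold change of Ptprk was 2.30, in broad cluster 7 with 3 members. That of Ptprt was 2.03, in Sst subcluster 5 with 3 members and in GABA subcluster 15 with 1 member. A relation between these genes and the number of members was not tested. The authors' deposited broad table added Tcf7l2, a transcription factor of β-catenin signalling, at 5.07 in the precursor-like cluster 20 (30.5% against 2.9%) and 3.34 in the astrocyte-like cluster 8 (28.7% against 2.2%). Of 13 planar cell polarity genes, whose products act with the flamingo cadherins, 2 were listed in the broad table (Prickle1 and Vangl1) and 1 in each of the others (Vangl1). For Prickle1 the authors' deposited broad table gave 2.94 in cluster 15 (71.5% against 17.1%), 2.55 in cluster 13 (70.2% against 17%) and 2.48 in cluster 23 (68.4% against 17.7%).

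The 53 other neuronal adhesion genes, with 24, 22 and 14 listed in the broad, GABA and Sst tables, serve as the nearest comparison. Their rows had median log2 fold changes of 1.61, 1.49 and 1.52 and median detection inside of 88.75%, 86.65% and 84.25%. The cadherin superfamily rows had similar fold changes and lower detection, at 63.8%, 58.3% and 55.1% inside. Listing for 2 or more clusters was seen for 75.0%, 68.2% and 7.14% of these adhesion genes in the broad, GABA and Sst tables. The shares were 33.3%, 47.1% and 28.6% for the cadherin superfamily members and 34.3%, 36.6% and 11.9% for all listed genes. In the Sst table the order of the adhesion genes and the members was the opposite of that in the other tables. That order rests on 1 of 14 adhesion genes and 2 of 7 members. Genes of a list are not replicates, and these differences were not tested.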

How the data were processed

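Single-nucleus RNA of pooled lateral septum tissue was measured in 3 libraries with version 3 of a droplet kit, per the labels' protocols. Per the submitters' processing notes, mm10 was the build and Seurat 4 a tool. The sources used here give no aligner, nuclei filters, clustering settings, marker test or treatment of doublets and free RNA. The deposited values are, per the file headers, an average log2 fold change (of unknown pseudocount), a fraction of nuclei with detection inside and outside a cluster, written here as a percentage, and the authors' p-values and adjusted p-values over nuclei, which are not independent mice and are not printed for genes. The ratio of adjusted to raw p gave the number of genes tested.

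Scripts ran in Python 3.11.15 with pandas 2.3.3 and numpy 2.4.6, and figures were drawn with matplotlib 3.10.9. Cluster shares were solved by least squares from 286, 258 and 42 genes listed in 2 or more clusters of the broad, GABA and Sst tables, with residuals of 0.04, 0.037 and 0.036 percentage points, and were checked on simulated tables. They summed to 99.87%, 100.89% and 100.19%. Clusters of different tables were matched by shared genes, and a cluster was named where at least 3 markers of 1 cell type were listed and the marker of highest log2 fold change was of that type, a condition added after the data were seen, which left GABA subcluster 20 and Sst subcluster 1 unnamed. Upstream windows came from RefSeq on GRCm38.p6 and matched 16 of 20 members by symbol, with none for Cdh4, Cdh11, Cdh19 and Pcdh11x. Full values were to be given for the 12 member rows of largest log2 fold change per table with detection inside of at least 25%, for members in 3 or more clusters or in all tables, and for the clusters with most members; they are given here for all rows. Likeness of listing was the Jaccard index. The members, lists, motifs and shared runs were chosen with earlier results of these data known. The alternatives tried were a log2 fold change of at least 2, detection inside of at least 25%, adjusted p of at most 0.001, leaving out catenin and calsyntenin genes, and 2 other solutions for the shares.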

Additional observations from a re-analysis of the deposited data

How the results depend on the processing

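A log2 fold change of at least 2 changed the counts most. It left 6, 5 and 4 distinct members in 10, 5 and 4 rows of the broad, GABA and Sst tables, and at most 2 members in any cluster, with GABA subcluster 12 left with Cdh9 alone of its 6. Listing in 2 or more clusters fell to 0% of members in the GABA and Sst tables and was 50% in the broad table. The median log2 fold change of member rows became 2.63, 2.53 and 2.12 by construction, and median detection inside 58.2%, 77.1% and 54.55%. With detection inside of at least 25%, median detection was 75.0%, 65.8% and 55.7%, and the median log2 fold change 1.65 in the broad and 1.86 in the Sst table. Without Clstn2 and Ctnna2 the broad medians were 1.60 and 56.6%. Adjusted p of at most 0.001 left all rows. For the 109 detection and share values of single members, a move counted when it was over both 0.05 percentage points and 2% of the value. Leaving the members out of the equations gave 0 moves. Holding the sum of shares at 1 gave 2, with the share of positive GABA nuclei going from 1.81% to 1.73% for Pcdh11x in subcluster 20 and from 1.62% to 1.52% for Clstn2 in subcluster 21. The largest relative change was 6.27%, for Cdh12 in subcluster 21 (0.75% to 0.703%). The smallest clusters are the least certain. Values per mouse, nuclei numbers and depth limit all statements to these tables. No paired analysis was possible because all libraries form 1 group and the tables hold no values per library.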
